A study of Mus musculus with 42 samples.

Results

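Retinas of mice kept at 7% oxygen for 6 h (group 07-06h-ZH, n = 6) were compared with retinas of mice kept in room air (group Normoxia, n = 6), gene by gene over all 25700 genes of the deposited table. These 12 retinas were chosen by their sample titles and are 12 of the 42 in the series. All animals were C57BL/6J mice and 1 retina of each was sequenced whole as bulk tissue. The 07-06h-ZH mice were 10 weeks old when the exposure began, and the oxygen in their chamber at normal air pressure was lowered by 2% every 10 min until 7% was reached. The Normoxia mice were 9.5 weeks old at the start and stayed at 21% oxygen for 11 weeks, so they were older at collection. The series also holds mice kept at 14% oxygen in chambers or at high altitude. Of these, only the 6 mice exposed in the same chambers to 14% oxygen for 6 h (group 14-06h-ZH, 9 to 11 weeks old at the start) are used below, to ask whether a change at 7% oxygen differed from that at 14%. The comparison asks how severe, short hypoxia changes the transcripts of the retina.

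Cells sense oxygen through hydroxylases that use it to mark the alpha subunits of the hypoxia-inducible factors (HIFs) for binding by the VHL protein and degradation by the proteasome. When oxygen is short, the alpha subunits persist, pair with ARNT and bind the DNA core RCGTG, and the genes switched on this way serve glycolysis, vessel growth, red blood cell formation and the removal of mitochondria. The retina is a demanding place for such a response, since photoreceptors use large amounts of both oxygen and glucose, and Müller glia and vessels supply them.

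The 12 libraries were of similar depth and were retinal by their markers. In the 9 libraries whose reads could be recovered from the deposited values, 14892449 to 21388670 reads lay in genes, and 17048 to 17583 genes were above 0 in each of the 12. The mean log2 level of 7 rod markers was 11.05 to 11.18 in the 07-06h-ZH mice and 11.06 to 11.18 in the Normoxia mice. That of 5 cone markers was 7.45 to 7.69 in the 07-06h-ZH mice and 7.45 to 7.62 in the Normoxia mice. Correlations of log2 levels between libraries were 0.982 to 0.990 within 07-06h-ZH, 0.977 to 0.991 within Normoxia and 0.970 to 0.981 between the groups. The first principal component, with 48.1% of the variance, held all 6 mice of one group on one side of 0 and all 6 of the other on the opposite side.

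Several properties of the samples ran with the groups. The sample codes in the labels form a series of their own for each group, and the labels do not say what a code stands for, so oxygen, age at collection and code series cannot be told apart. Y-linked genes were expressed in 3 of 6 mice of 07-06h-ZH and in 6 of 6 of Normoxia. Markers of neighbouring tissue also varied. Over 12 markers of pigment cells, which lie behind the retina, the mean log2 level was 2.17 to 3.75 in the 07-06h-ZH mice and -0.71 to 3.80 in the Normoxia mice. Of these, 5 were higher at 7% oxygen, namely Lrat (log2 change 3.04 ± 0.67), Rpe65 (2.38), Ttr (2.33), Rgr (2.26) and Slc45a2 (0.83), whereas the melanosome genes Tyrp1 (0.31), Dct (0.12) and Pmel (-0.37) did not pass the test. The 5 higher markers became 1 with the red blood cell level, the Y-linked level or the replicate number in the model. They became 1 without replicate 5 or 6 of 07-06h-ZH or replicate 6 of Normoxia, and 2 or 3 without replicate 3 or 4 of 07-06h-ZH or replicate 2, 3 or 4 of Normoxia. Over 7 red blood cell markers the mean log2 level was 2.55 to 5.99 in the 07-06h-ZH mice and 1.07 to 4.58 in the Normoxia mice, and Hbb-bs, a beta-globin gene, had 60.7, 325 and 1169 FPKM in the 07-06h-ZH mice, against 16.9, 39.7 and 358 FPKM in the Normoxia mice. The mean of 15 lens markers was -2.51 to 2.18 in the 07-06h-ZH mice and -1.47 to 5.61 in the Normoxia mice, and none passed the test. In 07-06h-ZH the red blood cell level was highest in replicates 1 to 3, the mice with Y-linked expression, and the pigment level in replicates 4 to 6. How far such tissue takes part in the results below was tested only by adding the pigment and red blood cell levels to the model and, in separate models, the Y-linked level. Of the 251 named genes that passed the test, 242 also passed with the pigment level in the model, 224 with the red blood cell level and 232 with the Y-linked level. In bulk tissue, fewer cells of a type and less RNA per cell cannot be told apart.

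**Figure D1:**
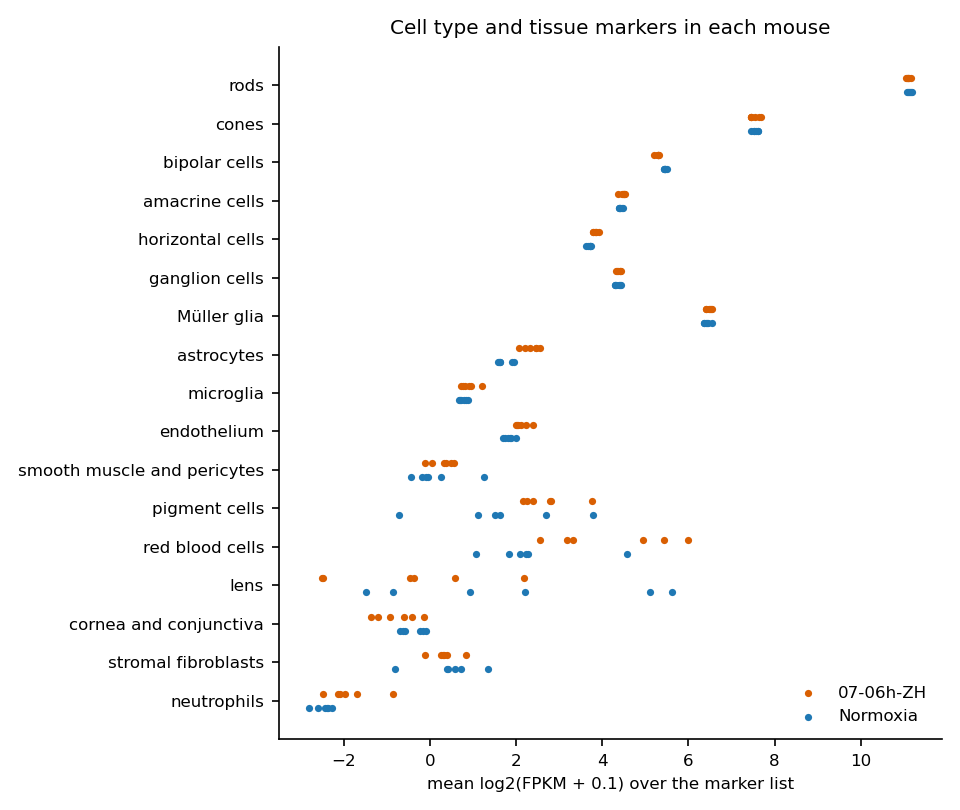
Mean log2(FPKM + 0.1) over each marker list (x axis) in every mouse, 07-06h-ZH (orange, upper row of each list) and Normoxia (blue, lower row). Rod and cone markers lay close together in all 12 mice, whereas lists of pigment cells, red blood cells and lens spread over several log2 units within a group.

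Of the 25700 genes, 16962 could be tested, 5901 were at 0 in all 12 mice, and the others were at 0 in more than 3 mice of a group. Expression was measured in FPKM (the fragments of a gene, scaled to its length and to the library's total) and tested with limma on log2(FPKM + 0.1), where a log2 change is 07-06h-ZH minus Normoxia and is given with its standard error (n = 6 mice in each group throughout). Levels of single genes are given as the lowest, the median and the highest mouse of each group. A gene passed the test when its adjusted p did not exceed 0.05, and it was called changed when the difference was also 2-fold or more. At any fold 7124 genes passed (42% of those tested), 3060 higher (18%) and 4064 lower (24%) at 7% oxygen. The median log2 change of all tested genes was -0.03. Called were 710 genes (4.19%), 484 higher (2.85%) and 226 lower (1.33%), after leaving out haemoglobins, crystallins, Rpe65, Mlana and Pmel. Large changes were mostly increases, with 73 genes higher and 5 lower by at least 2 log2 units. In 474 of the called genes the 6 mice of one group did not overlap with the 6 of the other, while 21.9% of all tested genes did not overlap (9.34% higher and 12.5% lower).

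**Figure D2:**
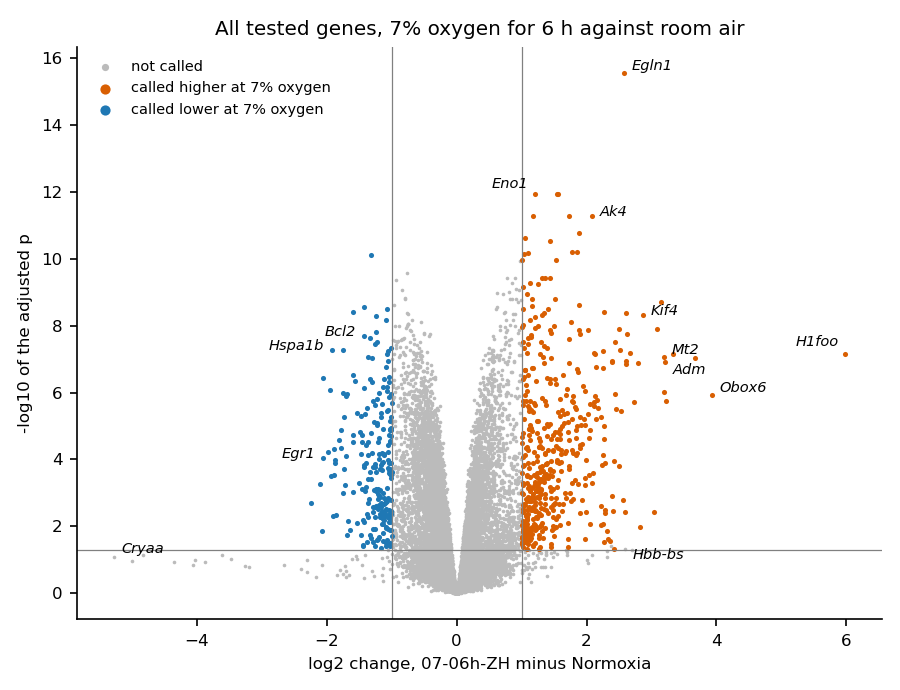
Log2 change (07-06h-ZH minus Normoxia, x axis) against -log10 of the adjusted p (y axis) for 16962 tested genes. Called genes are orange where higher and blue where lower at 7% oxygen, grey lines mark the limits of the call, and the points reach farther to the right than to the left.

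The HIF system itself changed more at its controls than at its alpha subunits HIF1 and HIF2. Of 27 genes of HIF control, 12 were higher, 3 lower and 12 did not pass the test, with a median log2 change of 0.11. The share past the test was 55.6%, against 42% of all tested genes, and 3 genes were called, all higher. Of the 8 co-regulators in the list 3 were higher and none lower (37.5% past the test). Egln1, the prolyl hydroxylase that marks HIF for degradation and is itself a HIF target, had 141, 151 and 155 FPKM in the 07-06h-ZH mice, against 22.9, 25.2 and 26.8 FPKM in the Normoxia mice. The groups did not overlap, and the log2 change of 2.58 ± 0.04, a 5.98-fold difference, had the smallest adjusted p of this gene list (2.7e-16). Its relative Egln3 had 2.72, 3.41 and 5.07 FPKM in the 07-06h-ZH mice, against 1.56, 2.09 and 2.72 FPKM in the Normoxia mice, and these groups overlapped (log2 change 0.76, adjusted p = 9.9e-04). The asparagine hydroxylase Hif1an was lower, with 26, 26.8 and 27.7 FPKM in the 07-06h-ZH mice, against 28.3, 34.7 and 37.9 FPKM in the Normoxia mice (log2 change -0.34 ± 0.06, adjusted p = 3.4e-04). Egln2 (log2 change -0.09) did not pass the test.

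Among the alpha subunits, Hif1a (log2 change -0.12 ± 0.06) and Epas1, which encodes HIF2 alpha (0.06 ± 0.06), did not pass the test, and the third, Hif3a, did. Hif3a, some forms of which restrain the other HIFs, had 3.94, 6.8 and 9.59 FPKM in the 07-06h-ZH mice, against 1.46, 2.27 and 3.05 FPKM in the Normoxia mice. Its groups did not overlap (log2 change 1.56 ± 0.20, adjusted p = 1.5e-05). The partner subunit Arnt was lower (-0.33) and Arnt2 higher (0.21). Vhl, the recognition subunit of the ligase, was higher by 0.37 log2 units. Mxi1, an antagonist of MYC, had 28, 31.7 and 35.2 FPKM in the 07-06h-ZH mice, against 13.8, 14.2 and 14.8 FPKM in the Normoxia mice (log2 change 1.14 ± 0.06). With the Y-linked level in the model 7 genes of the list were higher in place of 12, and Arnt2 did not pass (adjusted p = 0.06). The repressors Bhlhe40 (0.57) and Bhlhe41 (0.38) were higher without overlap of the groups.

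Promoter sequences of the 6 called genes with the smallest adjusted p among the HIF control, glycolysis, mitochondrial and metallothionein genes are shown because these are the genes on which the hypoxia results turn. Each runs 5′ to 3′ over 300 bases, 250 before and 50 after the RefSeq transcription start (GRCm38.p6), with the HIF core ACGTG or GCGTG on either strand in capitals. All 6 hold at least 1 match, which is a match of letters and not a binding site.
Egln1: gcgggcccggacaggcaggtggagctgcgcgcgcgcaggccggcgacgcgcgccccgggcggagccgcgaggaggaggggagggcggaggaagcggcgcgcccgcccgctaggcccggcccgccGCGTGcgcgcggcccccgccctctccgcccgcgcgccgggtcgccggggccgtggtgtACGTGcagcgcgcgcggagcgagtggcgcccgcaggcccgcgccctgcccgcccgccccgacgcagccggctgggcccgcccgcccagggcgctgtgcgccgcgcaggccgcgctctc
Eno1: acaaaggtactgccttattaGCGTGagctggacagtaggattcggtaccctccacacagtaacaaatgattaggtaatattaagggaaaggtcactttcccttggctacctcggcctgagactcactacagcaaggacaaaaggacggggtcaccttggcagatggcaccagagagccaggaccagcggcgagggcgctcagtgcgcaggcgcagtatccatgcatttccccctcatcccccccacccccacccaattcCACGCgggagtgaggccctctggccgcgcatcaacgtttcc
Higd1a: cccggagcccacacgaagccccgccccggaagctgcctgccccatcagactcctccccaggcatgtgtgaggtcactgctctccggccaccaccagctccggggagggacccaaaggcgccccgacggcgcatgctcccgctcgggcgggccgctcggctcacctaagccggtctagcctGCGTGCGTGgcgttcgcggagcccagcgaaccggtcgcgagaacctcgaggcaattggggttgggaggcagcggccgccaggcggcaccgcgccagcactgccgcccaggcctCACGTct
Ak4: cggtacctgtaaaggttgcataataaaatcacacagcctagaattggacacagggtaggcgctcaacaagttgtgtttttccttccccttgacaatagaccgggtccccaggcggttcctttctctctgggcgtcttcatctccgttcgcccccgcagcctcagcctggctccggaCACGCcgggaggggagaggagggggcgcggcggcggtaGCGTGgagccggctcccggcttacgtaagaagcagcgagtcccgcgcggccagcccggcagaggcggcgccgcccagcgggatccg
Fam162a: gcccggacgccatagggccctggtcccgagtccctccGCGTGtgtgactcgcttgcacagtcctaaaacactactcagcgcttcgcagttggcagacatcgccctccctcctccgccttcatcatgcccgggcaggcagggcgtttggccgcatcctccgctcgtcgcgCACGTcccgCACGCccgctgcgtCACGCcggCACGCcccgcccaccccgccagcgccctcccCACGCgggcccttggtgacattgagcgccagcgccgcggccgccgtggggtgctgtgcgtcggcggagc
Bnip3: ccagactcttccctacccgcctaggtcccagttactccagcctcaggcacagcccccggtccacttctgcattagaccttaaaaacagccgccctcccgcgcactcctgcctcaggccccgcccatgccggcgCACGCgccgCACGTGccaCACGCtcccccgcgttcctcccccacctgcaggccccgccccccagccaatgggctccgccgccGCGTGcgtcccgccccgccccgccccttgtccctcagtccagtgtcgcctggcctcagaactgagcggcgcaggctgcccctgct
They lie at chr8:124949205-124949504 (Egln1, minus strand), chr4:150236458-150236757 (Eno1, plus strand), chr9:121857747-121858046 (Higd1a, minus strand), chr4:101419039-101419338 (Ak4, plus strand), chr16:36071512-36071811 (Fam162a, minus strand) and chr7:138909457-138909756 (Bnip3, minus strand). The matches number 2 in Egln1, 2 in Eno1, 3 in Higd1a, 2 in Ak4, 6 in Fam162a and 5 in Bnip3, where matches on both strands may overlap. Such matches are common, since 43.8% of 27018 promoters, 1 for each gene, held at least 1, as did 59.6% of 12227 promoters of tested genes. Of the promoters of genes called higher 48.5% (160 of 330) held one, and of genes called lower 49.5% (54 of 109).

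Most glycolysis genes were higher at 7% oxygen. Of 32 genes of glucose uptake and glycolysis, 24 were higher, 1 lower and 7 did not pass the test, against 18% and 24% of all tested genes, and the median log2 change was 0.58. The glucose transporters came first. Slc2a1, the main glucose carrier of the blood-retina barrier and of photoreceptors, had 274, 291 and 322 FPKM in the 07-06h-ZH mice, against 122, 146 and 202 FPKM in the Normoxia mice. It missed the 2-fold limit narrowly, at a log2 change of 0.98 ± 0.10 (adjusted p = 4.0e-06). Slc2a3 was higher by 0.68, and Slc2a4, the insulin-regulated carrier of muscle and fat, had 2.25, 2.84 and 3.28 FPKM in the 07-06h-ZH mice, against 0.491, 0.724 and 1.29 FPKM in the Normoxia mice, the largest log2 change of the 3 (1.78 ± 0.19).

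Enzymes along the whole pathway were higher too. Hk2, the hexokinase that traps glucose, had 329.6, 383 and 423 FPKM in the 07-06h-ZH mice, against 122, 161 and 172 FPKM in the Normoxia mice, without overlap (log2 change 1.30 ± 0.09). Pfkl, a subunit of phosphofructokinase, was higher by 1.05 ± 0.08, and Pfkfb3, which makes its activator fructose-2,6-bisphosphate, by 1.02 ± 0.05. Tpi1 (0.81), Gpi1 (0.71) and Gapdh (0.62) rose by less than 2-fold. Pgk1, the first step that yields ATP, had 318, 338 and 366 FPKM in the 07-06h-ZH mice, against 159.7, 167 and 185 FPKM in the Normoxia mice. Eno1, the enolase of most tissues, had 2402, 2508 and 2610.0 FPKM in the 07-06h-ZH mice, against 1012, 1082 and 1158 FPKM in the Normoxia mice, whereas the neuronal enolase Eno2 did not pass the test (log2 change 0.01 ± 0.04). Pkm, the last step, was higher by 0.60 ± 0.04. The groups did not overlap for 22 of the 32 genes, against 21.9% of all tested genes.

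The largest change of the list concerned lactate. Ldha, which turns pyruvate into lactate, had 1741, 1856 and 2024 FPKM in the 07-06h-ZH mice, against 1031, 1114 and 1152 FPKM in the Normoxia mice (log2 change 0.77 ± 0.04). Slc16a3 encodes MCT4, the carrier that exports lactate from glycolytic cells. It had 112, 127 and 145 FPKM in the 07-06h-ZH mice, against 21.7, 24.7 and 33.3 FPKM in the Normoxia mice, a 4.84-fold difference without overlap (log2 change 2.28 ± 0.11, adjusted p = 3.8e-09). Slc16a7, which encodes the carrier MCT2 of lactate-using neurons, was the only lower gene of the list (-0.33 ± 0.12). Bsg, the chaperone of these carriers, was higher by 0.55.

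Glycogen genes moved in both directions. Of 28, 10 were higher and 6 lower (57.1% past the test, against 42% of all tested genes), with a median log2 change of 0.08. On the side of synthesis, Gys1, the glycogen synthase of tissues other than liver, had 24.5, 25.7 and 33.7 FPKM in the 07-06h-ZH mice, against 9.4, 10.8 and 12 FPKM in the Normoxia mice (log2 change 1.34 ± 0.08). Pgm2, which interconverts glucose phosphates, was higher by 1.36 ± 0.07, and Ppp1r3g, which brings protein phosphatase 1 to glycogen, by 1.55 ± 0.25. On the side of breakdown, the brain phosphorylase Pygb had 44.1, 48.8 and 53.5 FPKM in the 07-06h-ZH mice, against 67.1, 72.3 and 76.6 FPKM in the Normoxia mice (log2 change -0.55 ± 0.05), and Phkb, a subunit of the kinase that activates phosphorylase, was lower (-0.50 ± 0.06). Ugp2, which makes the glucose donor for synthesis, was lower (-0.41 ± 0.07).

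At the entry of pyruvate into mitochondria the kinases and phosphatases split. Pdk1, which switches off pyruvate dehydrogenase, had 81.7, 91.9 and 102 FPKM in the 07-06h-ZH mice, against 26.2, 31.1 and 39.8 FPKM in the Normoxia mice, a log2 change of 1.51 ± 0.08. Pdk3 was also higher (0.42 ± 0.05), Pdk4 did not pass the test (0.01 ± 0.26), and the opposing phosphatases Pdp1 (-0.34 ± 0.06) and Pdp2 (-0.63 ± 0.08) were lower. Enzymes of the TCA cycle changed little, and of 32 genes of pyruvate entry and the cycle 6 were higher (3 with the red blood cell level in the model), 11 lower (6 with a count test on recovered reads) and 1 called. Oxidative phosphorylation changed in small steps. Of 77 nuclear-encoded subunits 9 were higher, 22 lower and 46 did not pass the test, against 18% and 24% of all tested genes, and none was called. Their median log2 change was -0.03, with the range -0.53 to 0.41. The 22 lower subunits became 14 with median-of-ratios scaling, 13 with the red blood cell level in the model and 11 with a count test on recovered reads. Of 11 mitochondrially encoded genes tested, mt-Nd3 was higher (0.52 ± 0.15) and mt-Nd6, on the opposite strand, lower (-0.75 ± 0.22). Neither passed with the Y-linked level in the model (adjusted p = 0.097 and 0.16).

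Genes that act on mitochondria under stress changed more than those of the respiratory chain. Of 21 tested genes 13 were higher and 3 lower (76.2% past the test, against 42% of all tested genes), with a median log2 change of 0.22. Bnip3, a receptor that delivers mitochondria to autophagosomes, had 462, 509 and 579 FPKM in the 07-06h-ZH mice, against 124, 153 and 175 FPKM in the Normoxia mice (log2 change 1.77 ± 0.07, adjusted p = 6.3e-11). Its relative Bnip3l had 156, 168 and 184 FPKM in the 07-06h-ZH mice, against 81.6, 87.9 and 97.3 FPKM in the Normoxia mice, also without overlap. Higd1a, an assembly factor that supports cytochrome oxidase in low oxygen, had 188, 194 and 199 FPKM in the 07-06h-ZH mice, against 59.2, 65.2 and 74.3 FPKM in the Normoxia mice. Ak4, an adenylate kinase of the mitochondrial matrix, had 67.3, 68.2 and 81.5 FPKM in the 07-06h-ZH mice, against 14.6, 16.1 and 18.9 FPKM in the Normoxia mice (log2 change 2.09 ± 0.07). Fam162a, a HIF target linked to cell death, had 114, 129 and 144 FPKM in the 07-06h-ZH mice, against 30.2, 34.3 and 39.2 FPKM in the Normoxia mice (log2 change 1.89 ± 0.07). Ndufa4l2 (1.16 ± 0.33) and Cox4i2 (0.54 ± 0.09), alternative subunits used at low oxygen, and the protease Lonp1 (0.65 ± 0.05) rose with them. The parkin route showed less, with log2 changes of 0.10 for Pink1 and -0.13 for Park2, neither past the test.

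**Figure D3:**
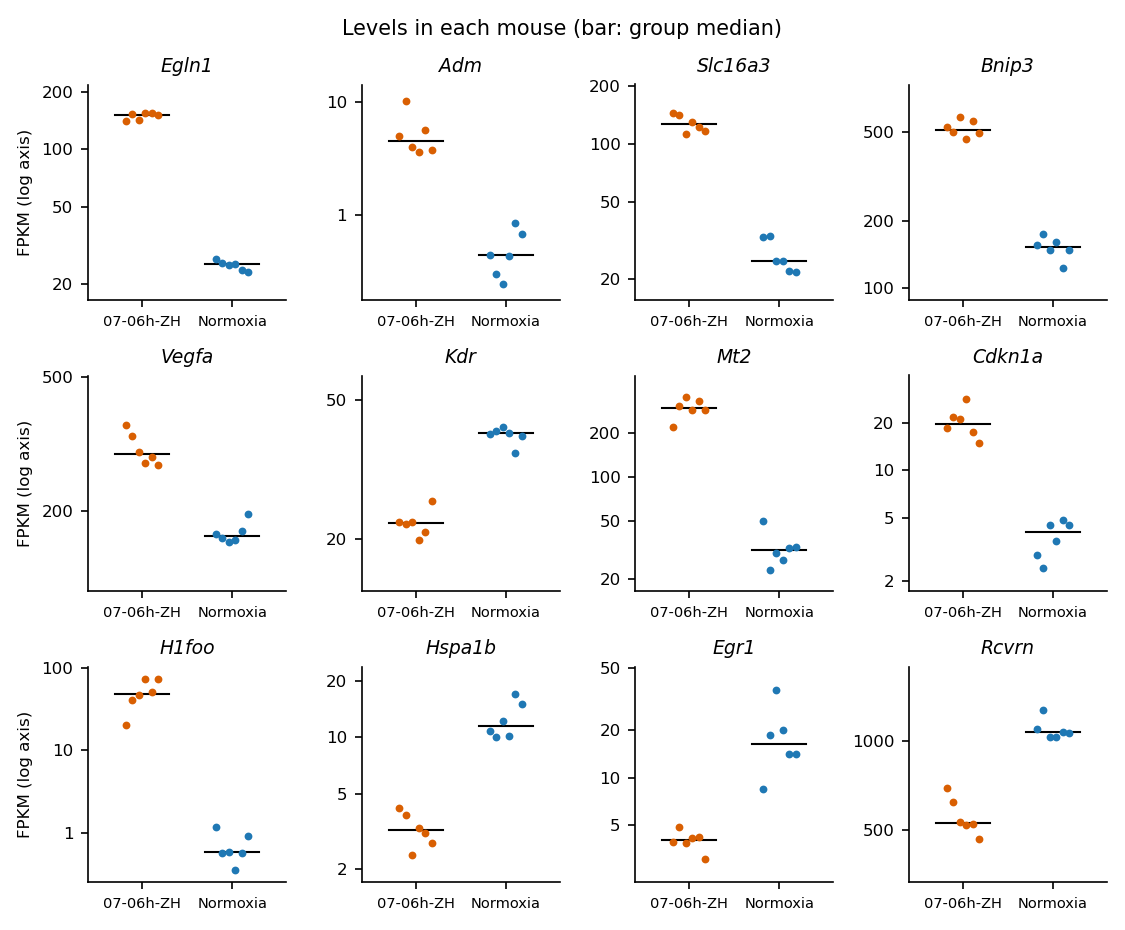
FPKM of 12 genes in each mouse on a log axis, 07-06h-ZH (orange, left) and Normoxia (blue, right), with bars at the group medians. In each of the 12 panels the 6 mice of one group lie clear of the 6 of the other, from Egr1, with a log2 change of -2.06, to H1foo, with 5.99.

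Among signals to vessels, ligands were higher where they changed, and receptors changed both ways. Of 17 ligands 8 were higher and none lower, and of 15 tested receptors 2 were higher and 5 lower. The shares past the test, 47.1% of ligands and 46.7% of receptors, were near the 42% of all tested genes. The 5 lower genes became 3 without replicate 2 or 3 of 07-06h-ZH or replicate 2 or 3 of Normoxia, and also with the red blood cell level in the model. The median log2 change of all 32 was 0.07, and the 6 called genes were higher. Adm, the vasodilator peptide adrenomedullin, had 3.66, 4.54 and 10.2 FPKM in the 07-06h-ZH mice, against 0.249, 0.444 and 0.858 FPKM in the Normoxia mice (log2 change 3.20 ± 0.27, adjusted p = 1.2e-07). Apln, the endothelial peptide apelin, had 3.82, 4.98 and 7.5 FPKM in the 07-06h-ZH mice, against 0.384, 0.443 and 0.687 FPKM in the Normoxia mice (log2 change 3.15 ± 0.18). Both were below 1 FPKM in all Normoxia mice and above 3 FPKM in all mice at 7% oxygen. Vegfa, the main vascular growth factor and already abundant in normoxia, had 273, 294 and 360.3 FPKM in the 07-06h-ZH mice, against 161, 168 and 195 FPKM in the Normoxia mice, a smaller difference without overlap (log2 change 0.82 ± 0.07). Angptl4, a secreted lipase inhibitor and vascular factor, was higher by 2.13 ± 0.22, Igfbp3 by 1.62 ± 0.20 and Apold1, an early endothelial response gene, by 1.37 ± 0.23. Pdgfra, a receptor that marks astrocytes and fibroblasts, was the 1 called receptor (1.0 ± 0.17). Edn1 (endothelin 1, 0.53 ± 0.23), Pgf (0.45 ± 0.32) and Angpt2 (-0.11 ± 0.16) did not pass the test.

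Kdr, the principal signalling receptor for VEGF on endothelium, had 19.8, 22.2 and 25.6 FPKM in the 07-06h-ZH mice, against 35.2, 40.1 and 42 FPKM in the Normoxia mice. It was lower in every 07-06h-ZH mouse than in any Normoxia mouse (log2 change -0.83 ± 0.06), and Flt1, the receptor that binds VEGF with little signalling, was higher (0.50 ± 0.06). The angiopoietin receptors Tek (-0.56 ± 0.20) and Tie1 (-0.55 ± 0.17) were lower, although neither passed with the red blood cell level in the model (adjusted p = 0.3 and 0.087). Ramp3, which makes the calcitonin-like receptor bind adrenomedullin, was lower too (-0.83 ± 0.15), while Calcrl (0.21 ± 0.17) and Ramp2 (-0.03 ± 0.07) did not pass the test. General endothelial markers did not fall with Kdr. Of 13, 6 were higher and 1, Tie1, was lower (53.85% past the test, against 42% of all tested genes). Ly6c1 (1.17 ± 0.10) and Pecam1 (0.98 ± 0.09) were among the higher ones, and the mean log2 level of the list was 2.0 to 2.38 in the 07-06h-ZH mice and 1.70 to 1.99 in the Normoxia mice, without overlap. Of 11 smooth muscle and pericyte markers 3 were higher and 8 did not pass the test (27.3% past it), with a median log2 change of 0.09. Their mean log2 level overlapped, at -0.11 to 0.55 in the 07-06h-ZH mice and -0.43 to 1.25 in the Normoxia mice. Kcnj8, a potassium channel gene of pericytes, was higher by 1.44 ± 0.18 and its partner Abcc9 by 1.02 ± 0.16. Acta2 of smooth muscle spread widely without passing (-1.46 ± 0.75).

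Genes of glial stress and photoreceptor survival held several large increases. Of 29 tested, 14 were higher, 4 lower and 11 did not pass the test, 10 were called higher, and the median log2 change was 0.74. The share past the test was 62.1%, against 42% of all tested genes, of which 2.85% were called higher. Edn2, an endothelin that stressed photoreceptors release, had 7.18, 9.39 and 12.8 FPKM in the 07-06h-ZH mice, against 1.46, 2.44 and 3.34 FPKM in the Normoxia mice (log2 change 1.95 ± 0.19). Fgf2, a survival factor for photoreceptors, had 32.6, 48.3 and 60.8 FPKM in the 07-06h-ZH mice, against 16.8, 20.6 and 24.9 FPKM in the Normoxia mice (log2 change 1.17 ± 0.14). Lif, which drives this response in injured retina, was 1.20 ± 0.58 log2 units higher without passing the test. On the receiving side, Stat3, the transducer of LIF-type signals, had 63.6, 71.5 and 75.3 FPKM in the 07-06h-ZH mice, against 39.1, 41.6 and 47 FPKM in the Normoxia mice, and its feedback inhibitor Socs3 was higher by 1.45 ± 0.31. Osmr was higher by 1.27 ± 0.19, whereas the LIF receptor itself, Lifr, was lower (-0.47 ± 0.06).

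Outputs of reactive glia were mixed. Of 16 such genes 6 were higher, 1 lower and 9 did not pass the test, so that 43.75% were past it, against 42% of all genes. Gfap, the intermediate filament of astrocytes and reactive Müller cells, had 12.5, 23.2 and 32.2 FPKM in the 07-06h-ZH mice, against 5.41, 6.08 and 6.81 FPKM in the Normoxia mice (log2 change 1.74 ± 0.21). Lcn2, the iron-binding lipocalin of acute stress, had 15.8, 25.3 and 35 FPKM in the 07-06h-ZH mice, against 3.26, 3.73 and 4.45 FPKM in the Normoxia mice (log2 change 2.61 ± 0.19). A2m was higher by 1.36 ± 0.28, S100a6 was the 1 lower gene (-0.95 ± 0.27), and Vim did not pass the test (-0.09 ± 0.25). Among the transducers, Cebpd, an inflammatory transcription factor, had 6.16, 17 and 26.8 FPKM in the 07-06h-ZH mice, against 1.82, 3.18 and 3.88 FPKM in the Normoxia mice (log2 change 2.28 ± 0.31). Bcl3, which modifies NF-kB, was higher by 2.22 ± 0.59. The mean log2 level of 5 astrocyte markers, Gfap and Pdgfra among them, was 2.07 to 2.55 in the 07-06h-ZH mice and 1.58 to 1.96 in the Normoxia mice. With the red blood cell level in the model 9 genes of the glial stress list were higher in place of 14, at a median of 0.43, and Bcl3 did not pass (adjusted p = 0.093). The mean log2 level of 12 Müller cell markers overlapped between the groups, at 6.42 to 6.55 in the 07-06h-ZH mice and 6.36 to 6.55 in the Normoxia mice. Of these markers 2 were higher, 4 lower and 6 did not pass the test (50% past it). The 1 called marker was higher (log2 change 1.46), and the water channel Aqp4 was lower (-0.49 ± 0.06).

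Targets of NF-kB were mixed. Of 22 tested, 4 were higher, 4 lower and 14 did not pass the test, with a median log2 change of -0.04. The share past the test was 36.4%, below the 42% of all tested genes. The 4 lower genes became 1 without replicate 6 of 07-06h-ZH or of Normoxia, 2 without replicate 2 or 4 of 07-06h-ZH or replicate 4 or 5 of Normoxia, and 1 with the Y-linked level in the model or with a count test on recovered reads. Nfkbiz, an inducible co-regulator, was the 1 called gene (1.05 ± 0.09). Tnfaip3, which shuts the pathway off, had 100.4, 105 and 108 FPKM in the 07-06h-ZH mice, against 139, 147 and 164 FPKM in the Normoxia mice and was lower without overlap (-0.53 ± 0.04). The cytokine genes Tnf (-0.03 ± 0.27) and Il1b (-0.55 ± 0.42) and the adhesion gene Vcam1 (-0.17 ± 0.08) did not pass. Of 15 microglial markers 4 were higher and 1 lower (33.3% past the test). Their mean log2 level overlapped, at 0.73 to 1.21 in the 07-06h-ZH mice and 0.67 to 0.89 in the Normoxia mice. The 4 higher markers became 1 with the pigment level or the Y-linked level in the model, and 2 without replicate 4 or 6 of 07-06h-ZH or replicate 2, 4 or 6 of Normoxia.

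Complement, coagulation and protease inhibitor genes were mixed. Of 48 tested, 13 were higher, 6 lower and 29 did not pass the test (39.6% past it, against 42% of all tested genes). C3, the central component, had 2.79, 2.91 and 3.73 FPKM in the 07-06h-ZH mice, against 0.725, 1.85 and 2.47 FPKM in the Normoxia mice (log2 change 0.86 ± 0.21), and with the red blood cell level in the model its adjusted p was 0.055. Cfi, the protease that cleaves C3b, was lower (-0.98 ± 0.23). Plaur, the urokinase receptor, was at most 2 FPKM in any mouse and was higher by 2.29 ± 0.54, while urokinase itself, Plau, was lower (-1.03 ± 0.31). Both Cfi (adjusted p = 0.088) and Plaur (0.076) missed the threshold with the red blood cell level in the model. Timp3, an inhibitor of metalloproteinases in the membrane under the pigment epithelium, had 71.7, 111 and 134 FPKM in the 07-06h-ZH mice, against 25.9, 51.9 and 86.6 FPKM in the Normoxia mice (log2 change 1.04 ± 0.28). The mice with the highest Timp3 in each group were those with the highest Rpe65 (replicates 5 and 6 of 07-06h-ZH, replicates 1 and 5 of Normoxia). The log2 change of Timp3 with the pigment cell level in the model was 0.64 ± 0.12 (adjusted p = 8.4e-04). It did not pass with the red blood cell level in the model (adjusted p = 0.072). Timp1 had 0.185, 1.18 and 2.45 FPKM in the 07-06h-ZH mice, against 0.126, 0.365 and 0.988 FPKM in the Normoxia mice, with overlap, and its adjusted p of 0.042 was 0.48 with the red blood cell level in the model. The secreted proteases with thrombospondin repeats Adamts1 (1.06 ± 0.28) and Adamts9 (1.36 ± 0.21) were higher. The count of 13 higher and 6 lower genes came to 6 and 4 with the red blood cell level in the model and to 9 and 3 with the Y-linked level.

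**Figure D4:**
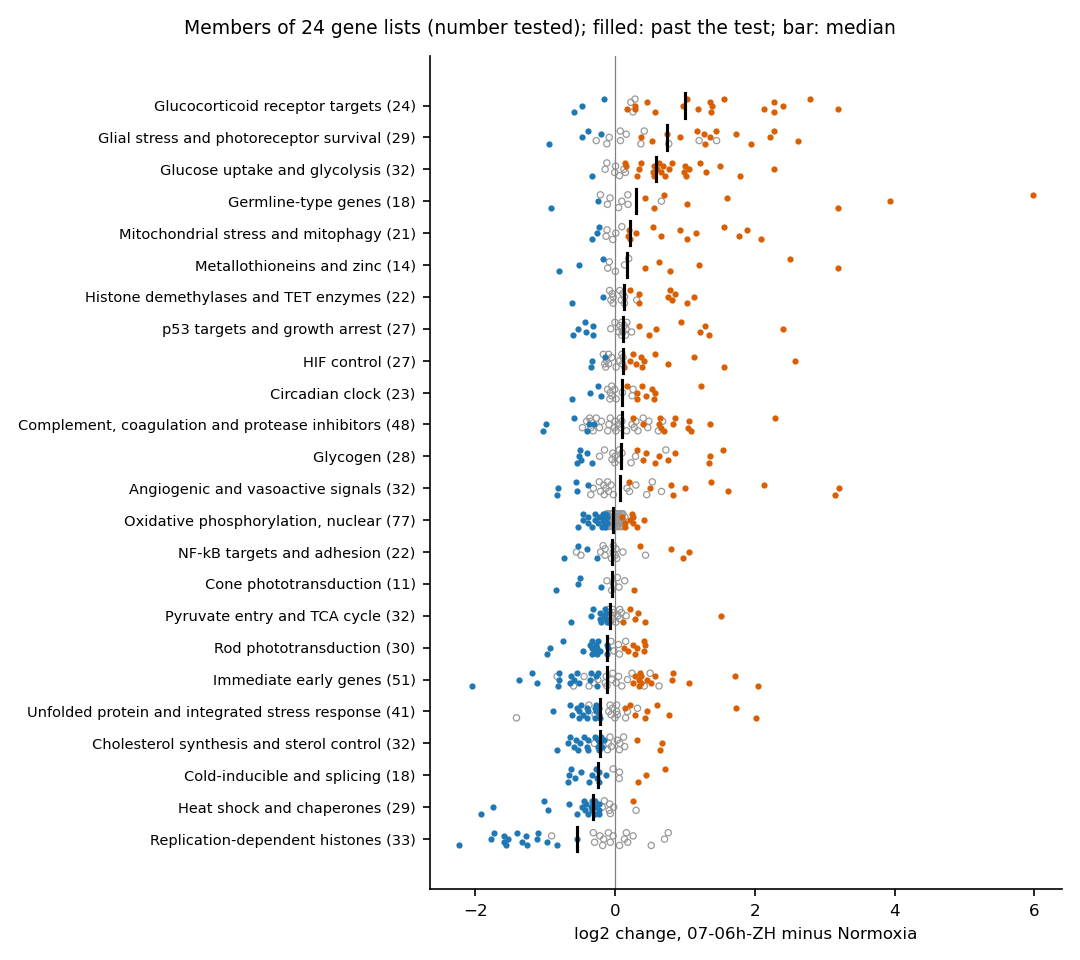
Log2 change (07-06h-ZH minus Normoxia, x axis) of each tested member of 24 gene lists (points, orange where past the test and higher, blue where past the test and lower, open where not past it) with the list's median as a bar. Glycolysis and the glucocorticoid, glial stress and metallothionein lists reach far to the right, and heat shock, cholesterol synthesis and replication-dependent histone genes lie mostly left of 0.

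Immediate early genes, which neurons switch on within minutes of activity, split into falling and rising members. Of 51, 15 were higher and 17 lower (62.7% past the test, against 42% of all tested genes), with 3 called higher and 4 called lower. Egr1 had 3.04, 4.05 and 4.91 FPKM in the 07-06h-ZH mice, against 8.49, 16.4 and 36.2 FPKM in the Normoxia mice, without overlap although the Normoxia mice differed widely among themselves (log2 change -2.06 ± 0.28, adjusted p = 9.2e-05). Fos (-1.19 ± 0.24), Nr4a1 (-1.11 ± 0.25), Nr4a3 (-1.37 ± 0.47) and Arc (-0.81 ± 0.21), all induced by synaptic activity, were lower as well. In the opposite direction, Maff, a small Maf factor, had 1.54, 2.75 and 3.73 FPKM in the 07-06h-ZH mice, against 0.343, 0.59 and 0.918 FPKM in the Normoxia mice (log2 change 2.05 ± 0.27). Fosl1 (1.71 ± 0.63) and Cyr61, a secreted matrix protein (1.06 ± 0.28), were also higher, so the AP-1 family did not move as one. Mafg, another small Maf factor, was lower (-0.64 ± 0.05). The 17 lower genes became 8 with the Y-linked level in the model, where Arc did not pass (adjusted p = 0.11), and 11 with a count test on recovered reads, where the median was 0.05 in place of -0.12.

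Growth arrest genes and p53 targets were mixed. Of 27 tested, 8 were higher and 6 lower (51.9% past the test, against 42% of all tested genes), and 4 were called, all higher. Of the 14 arrest genes among them 5 were higher, 3 lower and 6 did not pass the test. Cdkn1a, the p21 inhibitor of the cell cycle, had 14.9, 19.8 and 28.5 FPKM in the 07-06h-ZH mice, against 2.41, 4.07 and 4.89 FPKM in the Normoxia mice (log2 change 2.40 ± 0.18, adjusted p = 1.2e-07). Gadd45b, a stress gene of growth arrest, had 11.6, 21.5 and 25 FPKM in the 07-06h-ZH mice, against 6.69, 7.35 and 9.45 FPKM in the Normoxia mice (log2 change 1.35 ± 0.16). The death receptor gene Tnfrsf10b (1.22 ± 0.22) and Pmaip1 (1.28 ± 0.26), an inhibitor of survival proteins, were higher at levels of at most 1.4 FPKM. Bbc3, the other classical death target of p53, was lower (-0.53 ± 0.15), as was Ccng1 (-0.42 ± 0.05), and Mdm2 (0.11 ± 0.05) and Trp53 (0.07 ± 0.08) did not pass the test. Bcl2, which protects against cell death, had 2.44, 2.89 and 3.51 FPKM in the 07-06h-ZH mice, against 7.51, 8.04 and 8.86 FPKM in the Normoxia mice (log2 change -1.43 ± 0.10). It was chosen after its values were seen.

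Chaperone genes were mostly lower, those of the cytosol and those of the endoplasmic reticulum. Of 29 heat shock and chaperone genes, 21 were lower, 1 higher and 7 did not pass the test, where 24% of all tested genes were lower, and the median log2 change was -0.32. Hspa8, the constitutive HSP70, had 235, 253 and 277 FPKM in the 07-06h-ZH mice, against 462, 475 and 636 FPKM in the Normoxia mice (log2 change -1.01 ± 0.07). The inducible copies were lower still. Hspa1b had 2.37, 3.2 and 4.19 FPKM in the 07-06h-ZH mice, against 10.1, 11.6 and 17 FPKM in the Normoxia mice (log2 change -1.92 ± 0.15). Hspa1a had 2.62, 3.86 and 4.08 FPKM in the 07-06h-ZH mice, against 9.69, 12.1 and 16.6 FPKM in the Normoxia mice (log2 change -1.75 ± 0.14). These 2 genes are almost identical in sequence, so the split of reads between them is uncertain. The HSP90 partner Chordc1 (-0.97 ± 0.09), Hspa4 (-0.55 ± 0.04), Hsph1 (-0.66 ± 0.11) and the factor Hsf1 (-0.43 ± 0.05) were lower, and the chaperonin subunits Cct3, Cct4 and Cct5 by smaller steps (between -0.45 and -0.32). The single higher member was Hspa9, the HSP70 of mitochondria (0.25 ± 0.05).

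Of 41 genes of the unfolded protein and integrated stress responses, 18 were lower and 9 higher (65.85% past the test, against 42% of all tested genes). Among the 18 that fold proteins 13 were lower and 1 higher. Hspa5, the chaperone BiP, had 109, 131 and 134 FPKM in the 07-06h-ZH mice, against 154, 182 and 199 FPKM in the Normoxia mice (log2 change -0.52 ± 0.07), and Creld2 (-0.65 ± 0.07), Pdia4 (-0.62 ± 0.07), Pdia6 (-0.54 ± 0.05) and Calr (-0.49 ± 0.06) were lower without overlap of the groups. Ero1l, the oxidase that regenerates disulphide bonds, had 90.2, 102 and 115 FPKM in the 07-06h-ZH mice, against 27.1, 31.2 and 32.8 FPKM in the Normoxia mice (log2 change 1.73 ± 0.06, adjusted p = 5.1e-12). Stc2, a secreted glycoprotein, had 5.12, 6.88 and 7.98 FPKM in the 07-06h-ZH mice, against 1.26, 1.46 and 2.2 FPKM in the Normoxia mice (log2 change 2.02 ± 0.14). The integrated stress markers Ddit3 (0.15 ± 0.08), Asns (-0.09 ± 0.06) and Chac1 (-0.37 ± 0.19) did not pass the test, and Atf4 was lower (-0.24 ± 0.06).

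RNA-binding genes known from cooling moved against the heat shock genes. Cirbp, the cold-inducible RNA-binding protein, had 492, 533 and 556 FPKM in the 07-06h-ZH mice, against 245, 350.2 and 372 FPKM in the Normoxia mice (log2 change 0.71 ± 0.09). Rbm3 had 75.5, 79.5 and 89.2 FPKM in the 07-06h-ZH mice, against 54.1, 59.5 and 64.6 FPKM in the Normoxia mice (log2 change 0.44 ± 0.05). Of the 16 splicing kinases and SR proteins listed with them, 12 were lower, 1 (Tra2b, 0.32 ± 0.07) was higher and 3 did not pass. Srsf5 (-0.67 ± 0.06), Tra2a (-0.66 ± 0.05) and the kinase Srpk1 (-0.63 ± 0.06) had the largest decreases. Body temperature was not among the labels.

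Metallothioneins, small proteins that bind zinc and copper, were the most increased of the abundant genes apart from Hbb-bs, at a mean of at least 100 FPKM. Mt1 had 195, 228 and 271 FPKM in the 07-06h-ZH mice, against 32.2, 38.6 and 59.4 FPKM in the Normoxia mice (log2 change 2.51 ± 0.14). Mt2 had 219, 293 and 350.2 FPKM in the 07-06h-ZH mice, against 23.1, 31.5 and 49.9 FPKM in the Normoxia mice (log2 change 3.19 ± 0.17). For both, each 07-06h-ZH mouse was over 3-fold above every Normoxia mouse. Mt3, the form of neurons, had 32.1, 38.3 and 41.4 FPKM in the 07-06h-ZH mice, against 19.9, 20.9 and 25.9 FPKM in the Normoxia mice (log2 change 0.78 ± 0.07). The zinc exporter Slc30a1, a classical target of the zinc sensor MTF1, was higher by 0.42 ± 0.07, the importer Slc39a4 by 1.19 ± 0.24, and the importer Slc39a10 was lower (-0.52 ± 0.07). Mtf1 itself did not pass the test (-0.08 ± 0.10). The promoters of Mt1 and Mt2 are shown with the core of the metal response element (TGCACNC or TGCGCNC, either strand) in capitals.
Mt1: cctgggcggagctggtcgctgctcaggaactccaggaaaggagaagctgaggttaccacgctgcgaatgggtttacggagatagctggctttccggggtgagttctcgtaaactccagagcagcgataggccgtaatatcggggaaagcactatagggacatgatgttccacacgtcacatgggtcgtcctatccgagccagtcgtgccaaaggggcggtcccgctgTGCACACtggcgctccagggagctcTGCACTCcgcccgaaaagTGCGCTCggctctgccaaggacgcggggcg
Mt2: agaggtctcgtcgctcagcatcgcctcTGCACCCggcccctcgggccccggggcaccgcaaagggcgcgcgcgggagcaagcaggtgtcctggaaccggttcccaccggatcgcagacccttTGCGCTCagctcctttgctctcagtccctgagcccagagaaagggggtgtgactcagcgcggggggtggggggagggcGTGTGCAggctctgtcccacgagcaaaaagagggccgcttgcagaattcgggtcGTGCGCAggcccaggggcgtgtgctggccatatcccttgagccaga
They lie at chr8:94178839-94179138 (Mt1, plus strand) and chr8:94172368-94172667 (Mt2, plus strand). The window of Mt1 held 3 matches and that of Mt2 held 4, with at least 1 match in 25.6% of all 27018 promoters, in 35.2% of those of tested genes, in 27% of those of genes called higher and in 28.4% of those of genes called lower.

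Metallothioneins also answer to glucocorticoids, and the list of glucocorticoid receptor targets had the highest median of the lists that were not cell markers. The lists were written with earlier results of these data known, so this rank is no test of the receptor. Of 24, 18 were higher, 3 lower and 3 did not pass the test, 12 were called, and the median log2 change was 1.0. Some of them belong to other lists above (Mt2, Cdkn1a, Cebpd, Hif3a, Angptl4). Of the rest, Fkbp5, the co-chaperone that limits the receptor, had 19, 30.1 and 39.5 FPKM in the 07-06h-ZH mice, against 10.2, 11 and 12.6 FPKM in the Normoxia mice (log2 change 1.36 ± 0.13). Map3k6, a stress kinase, had 1.94, 3.48 and 4.61 FPKM in the 07-06h-ZH mice, against 0.252, 0.344 and 0.685 FPKM in the Normoxia mice (log2 change 2.79 ± 0.24). Pglyrp1, an innate immune protein, was higher by 1.37 ± 0.15, Fam107a by 1.18 ± 0.25 and Arrdc2 by 1.03 ± 0.19. Plin4, a coat protein of lipid droplets, was higher by 2.27 ± 0.29, Sult1a1 by 1.39 ± 0.11 and Klf9 by 0.46 ± 0.06. The early-responding targets Sgk1 (-0.48 ± 0.05) and Dusp1 (-0.58 ± 0.13) were lower, and Tsc22d3 was higher by only 0.28 ± 0.09. The receptor gene Nr3c1 was lower by a small step (-0.15 ± 0.05). Steroid levels were not measured.

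Of 12 genes in the negative arm of the clock 6 were higher and 3 lower (75% past the test, against 42% of all tested genes). Of 7 in the positive arm 2 were higher and 1 lower (42.9% past it). Among all 23 genes of the clock list Ciart, a repressor of the clock, was the 1 called gene, with 26.3, 29.1 and 45.5 FPKM in the 07-06h-ZH mice, against 11.7, 14 and 14.3 FPKM in the Normoxia mice. Cry1 was higher by 0.55 ± 0.05 and Nr1d1 lower (-0.36 ± 0.06), while Clock (0.10 ± 0.06) and Dbp (-0.05 ± 0.06) did not pass the test. The hour of collection is not given in the sources used here.

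Genes of cholesterol synthesis fell along the pathway by less than 2-fold each. Of 19 synthesis genes, 14 were lower and none higher (73.7% past the test, against 42% of all tested genes). Idi1 had 4.88, 5.3 and 6.87 FPKM in the 07-06h-ZH mice, against 8.64, 10.2 and 10.9 FPKM in the Normoxia mice (log2 change -0.83 ± 0.09). Msmo1 had 27.3, 29.4 and 32.8 FPKM in the 07-06h-ZH mice, against 43.1, 47.5 and 49.9 FPKM in the Normoxia mice (log2 change -0.68 ± 0.06). Hmgcs1 had 42.5, 50.1 and 58.7 FPKM in the 07-06h-ZH mice, against 70.9, 75.8 and 81.7 FPKM in the Normoxia mice (log2 change -0.59 ± 0.07). The groups did not overlap for these 3 genes. Cyp51 (-0.65 ± 0.07) and Fdps (-0.57 ± 0.06) were lower too. On the side of control, Srebf1 (0.67 ± 0.10) and the cholesterol exporter Abca1 (0.64 ± 0.09) were higher. Several of these reactions consume oxygen, including those of Cyp51, Msmo1 and Sqle (-0.23 ± 0.05).

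Other oxygen-using enzymes were higher where most of them changed. Among histone and DNA demethylases, 9 of 22 were higher and 2 lower (50% past the test, against 42% of all tested genes). Kdm4b had 84.3, 91.3 and 98.5 FPKM in the 07-06h-ZH mice, against 41.8, 44.6 and 46.9 FPKM in the Normoxia mice (log2 change 1.03 ± 0.05). Kdm3a had 79.4, 80.8 and 89.7 FPKM in the 07-06h-ZH mice, against 41.5, 46.1 and 47.6 FPKM in the Normoxia mice (log2 change 0.85 ± 0.04). Tet2 (0.81 ± 0.06), Jmjd6 (0.79 ± 0.08) and Kdm6b (0.76 ± 0.08) were higher as well, and Kdm4d, at most 1.79 FPKM, was the other called gene (1.13 ± 0.25). Phf8 was lower (-0.61 ± 0.07). Of 12 collagen-modifying enzymes 5 were higher and none lower, and the share past the test, 41.7%, was near that of all tested genes. P4ha2 was at 0.66 ± 0.09, Plod2 at 0.63 ± 0.10 and Loxl4 at 0.97 ± 0.22.

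Iron and pH genes passed the test less often than all tested genes (42%), although some were called. Of 13 tested genes of iron and erythropoietin 3 were higher and 10 did not pass (23.1% past it). Of 16 genes of pH and carbonic anhydrases 3 were higher, 3 lower and 10 did not pass (37.5% past it). Tfrc, the receptor that takes up transferrin, had 183, 224 and 258 FPKM in the 07-06h-ZH mice, against 93.8, 107 and 124 FPKM in the Normoxia mice (log2 change 1.03 ± 0.09). Hmox1, the haem-degrading enzyme, had 7.95, 10.5 and 13.8 FPKM in the 07-06h-ZH mice, against 2.29, 2.6 and 4.81 FPKM in the Normoxia mice (log2 change 1.79 ± 0.18). Trf, transferrin itself, was also higher, with 150.3, 267 and 433 FPKM in the 07-06h-ZH mice, against 40.1, 51.9 and 166 FPKM in the Normoxia mice, but its groups overlapped, and the 2 highest Normoxia mice, replicates 1 and 5, were again those with the highest Rpe65. With the pigment cell level in the model the log2 change of Trf was 1.33 ± 0.23 (adjusted p = 0.0013). Epo, the hormone of red blood cell formation, was at most 4.39 FPKM and did not pass the test (0.25 ± 0.22). Car14, a membrane carbonic anhydrase of Müller cells and pigment epithelium, had 164, 207 and 239.7 FPKM in the 07-06h-ZH mice, against 63.8, 72.8 and 94.4 FPKM in the Normoxia mice (log2 change 1.46 ± 0.10). Car9, the HIF target of tumours, did not pass (0.03 ± 0.62), and Car4, of capillary walls, was lower (-1.90 ± 0.47), although not with the red blood cell level in the model (adjusted p = 0.098). Of 22 antioxidant genes, 5 were higher and 2 lower (31.8% past the test), and none was called.

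Photoreceptor transcripts shifted by less than 2-fold, in both directions. Of 30 rod phototransduction genes 17 were lower, 8 higher and 5 did not pass the test, none was called, and the median log2 change was -0.12. The mean log2 level of the list was 9.55 to 9.63 in the 07-06h-ZH mice and 9.67 to 9.79 in the Normoxia mice, without overlap. In the cascade, Gngt1, the gamma subunit of rod transducin, had 307, 322 and 339 FPKM in the 07-06h-ZH mice, against 574, 594 and 702 FPKM in the Normoxia mice (log2 change -0.93 ± 0.05). Gnat1, the alpha subunit, was lower by a smaller step (-0.26 ± 0.03).

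Genes that end the light response and restore cGMP moved in both directions. Rcvrn, the calcium sensor recoverin that acts in recovery from light, had 466, 528 and 692 FPKM in the 07-06h-ZH mice, against 1026, 1066 and 1268 FPKM in the Normoxia mice (log2 change -0.97 ± 0.08, adjusted p = 6.7e-07). The guanylate cyclases Gucy2f (-0.75 ± 0.05) and Gucy2e (-0.46 ± 0.04) were lower, and the photoreceptor kinase Grk1 also (-0.30 ± 0.05). Arrestin (Sag, 0.41 ± 0.07), the cyclase activator Guca1a (0.42 ± 0.06) and the shutoff partners Rgs9 (0.29 ± 0.04) and Gnb5 (0.42 ± 0.04) were higher. The fate factor Nrl was lower (-0.36 ± 0.04) and Nr2e3 did not pass (0.15 ± 0.07). In cones, 4 of 11 genes were lower and 1 higher (45.45% past the test, against 42% of all tested genes). The channel subunits Cnga3 (-0.85 ± 0.09) and Cngb3 (-0.54 ± 0.11) were lower, and the green opsin Opn1mw was higher (0.27 ± 0.05).

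Genes of segment renewal and of second-order neurons were also measured. Kif17, a kinesin of the photoreceptor cilium, had 4.54, 5.14 and 6.26 FPKM in the 07-06h-ZH mice, against 2.24, 2.31 and 2.72 FPKM in the Normoxia mice (log2 change 1.09 ± 0.10). Mertk, the receptor that pigment epithelium uses to engulf shed segments, had 2.53, 3.88 and 4.82 FPKM in the 07-06h-ZH mice, against 1.6, 2.03 and 2.37 FPKM in the Normoxia mice (log2 change 0.85 ± 0.16). Kif3a, the motor of ciliary transport, was lower (-0.48 ± 0.05). Of 14 bipolar cell markers 10 were lower (6 with a count test on recovered reads) and 2 higher. Cabp5, a calcium-binding protein of bipolar cells, had 36.8, 43.2 and 49.8 FPKM in the 07-06h-ZH mice, against 79.98, 83.4 and 89.1 FPKM in the Normoxia mice (log2 change -0.97 ± 0.08), and the glutamate receptor Grm6 of ON bipolar cells was lower by a smaller step (-0.37 ± 0.05). Amacrine, horizontal and ganglion cell markers showed log2 changes between -0.57 and 0.36, with 3 of 12, 3 of 7 and 4 of 12 higher and none, 1 and 1 lower. The 4 higher ganglion cell markers became 2 without replicate 4 or 5 of 07-06h-ZH or of Normoxia, 2 with the Y-linked level in the model and none with the red blood cell level.

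Replication-dependent histone genes, whose transcripts normally end in a stem-loop and not a poly(A) tail, were lower where they changed. Of 67, 33 could be tested, 16 were lower, none was higher, and 13 were called. The share past the test was 48.5%, against 42% of all tested genes, of which 24% were lower and 1.33% called lower. Hist3h2a had 18.9, 28.7 and 32.1 FPKM in the 07-06h-ZH mice, against 61.4, 67.6 and 75.4 FPKM in the Normoxia mice (log2 change -1.33 ± 0.11). Hist1h2be (-1.53 ± 0.18), Hist1h4i (-1.59 ± 0.21) and Hist2h3c1 (-1.73 ± 0.19) belong to clusters of near-identical copies, among which reads can be split, and are uncertain one by one. Cycle genes were mixed, and of 18 proliferation genes 4 were higher, 2 lower and 12 did not pass the test (33.3% past it). Mki67 (-0.11 ± 0.27) and Top2a (-0.31 ± 0.39) did not pass, with wide standard errors. Mcm2 (0.77 ± 0.08) was higher and Mcm7 (-0.97 ± 0.19) was lower. Among 33 tested genes of motile cilia, 25 did not pass. Ribosomal protein genes shifted little, with 17 of 77 cytosolic ones higher (7 with the Y-linked or the red blood cell level in the model, 11 without replicate 4 of Normoxia), 3 lower and log2 changes between -0.23 and 0.32.

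The largest increase of all belonged to a gene of oocytes. H1foo, a linker histone of the egg (chromosome 6, 115944938 to 115950236, GRCm38), had 20.5, 48.8 and 74.3 FPKM in the 07-06h-ZH mice, against 0.348, 0.576 and 1.16 FPKM in the Normoxia mice. The difference was 63.3-fold without overlap (log2 change 5.99 ± 0.33, adjusted p = 7.1e-08). Obox6, an oocyte homeobox gene, had 2.85, 3.77 and 4.91 FPKM in the 07-06h-ZH mice, against 0, 0.268 and 0.408 FPKM in the Normoxia mice (log2 change 3.93 ± 0.38). Bcl2l10, a BCL2 relative of oocytes, had 2.52, 4.29 and 5.96 FPKM in the 07-06h-ZH mice, against 0.0825, 0.47 and 0.695 FPKM in the Normoxia mice (log2 change 3.19 ± 0.32). Of 43 germline-type genes 25 were at 0 in too many mice to be tested. Of the 18 tested 8 were higher and 2 lower (55.6% past the test, against 42% of all tested genes). Sycp3 (1.60 ± 0.26), of the meiotic chromosome axis, and Zar1 (1.03 ± 0.24), a maternal factor, were the other called ones. The olfactory receptor gene Olfr1393 had 1.47, 2.52 and 3.62 FPKM in the 07-06h-ZH mice, against 0.0239, 0.0815 and 0.267 FPKM in the Normoxia mice (log2 change 3.67 ± 0.30), and 18 of 1103 olfactory receptor genes could be tested at all.

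The position of these genes was looked up after their values were seen. Bcl2l10 lies 1882 bases downstream of Gnb5 on the same strand (mean 754 FPKM). Kif4, a chromosome-binding kinesin with 19.5, 26.3 and 31.7 FPKM in the 07-06h-ZH mice, against 2.37, 3.76 and 4.61 FPKM in the Normoxia mice (log2 change 2.86 ± 0.16), lies 7244 bases downstream of Arr3, the cone arrestin. AC160405.1 (log2 change 3.09 ± 0.21) lies 3103 bases downstream of Agpat3. Obox6 lies 26.3 kb downstream of Crx and Olfr1393 lies 15.3 kb downstream of Mgat1, again on the same strand. Of the 484 genes called higher, 4.75% (23) had an upstream gene of at least 100 FPKM ending within 10 kb on the same strand, of the 73 higher by at least 2 log2 units 11% (8), of the 226 called lower 0.885% (2), and of all 16962 tested 1.65% (280). Of the 23 upstream genes, 20 had log2 changes between -0.41 and 0.42, among them Gnb5 (0.42), Arr3 (0.06) and Agpat3 (0.06), and the other 3 were Mt2 upstream of Mt1 (3.19), H3f3b upstream of Galk1 (0.96) and Aldoa upstream of a second gene of that name (0.66). A gene table does not tell reads of a gene's own transcript from reads of a neighbouring transcript that runs into it, and which it was here was not tested.

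The other genes with the largest changes were of mixed roles. Among those higher, 8430408G22Rik had 4.95, 7.69 and 7.84 FPKM in the 07-06h-ZH mice, against 0.271, 0.542 and 1.29 FPKM in the Normoxia mice (log2 change 3.33 ± 0.26). Fam71f2 (2.68 ± 0.21), Asb5 (2.63 ± 0.19) and Slc17a9, a vesicular nucleotide carrier (2.61 ± 0.16), were higher and were under 2 FPKM in every Normoxia mouse. Selenbp1, a selenium-binding protein and HIF target, had 20.5, 27.3 and 31.6 FPKM in the 07-06h-ZH mice, against 6.21, 8.03 and 9.13 FPKM in the Normoxia mice (log2 change 1.73 ± 0.12). Among those lower, Slc25a35, a mitochondrial carrier, had 5.5, 7.19 and 9.77 FPKM in the 07-06h-ZH mice, against 21.1, 22.5 and 23.5 FPKM in the Normoxia mice (log2 change -1.60 ± 0.10). Fv1, a restriction factor against retroviruses, had 0.837, 1.81 and 2.12 FPKM in the 07-06h-ZH mice, against 5.09, 5.4 and 7.29 FPKM in the Normoxia mice (log2 change -1.76 ± 0.18). Mns1 (-1.69 ± 0.17), of sperm flagella, Lipg, the endothelial lipase (-1.71 ± 0.18), and Arsi (-1.68 ± 0.52) were lower as well, the last only at an adjusted p of 0.019. Another 6 of the 15 largest decreases were predicted or unnamed genes, Gm44256 (-2.10), Gm36989 (-2.06), Gm44243 (-1.98), 9930120I10Rik (-1.95), Gm29797 (-1.88) and Gm44719 (-1.87).

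Whether these changes belonged to 7% oxygen or to 6 h of lower oxygen in general was asked by testing 07-06h-ZH directly against 14-06h-ZH. At any fold 45.5% of 17048 genes passed that test and 3.85% were called. Of the 710 genes called against Normoxia, 702 could be tested, 585 differed from 14-06h-ZH in the same direction, none in the opposite one, and 117 did not pass. By direction, 421 of 477 higher and 164 of 225 lower genes differed. Both tests use the same 07-06h-ZH mice, so genes called against Normoxia were favoured in advance to differ from 14-06h-ZH in that direction. The counts are therefore no separate test of the oxygen level. The values below are 07-06h-ZH minus 14-06h-ZH set beside 14-06h-ZH minus Normoxia, which shares the Normoxia mice with the main comparison.

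Many metabolic HIF targets were graded. Egln1 was 1.53 log2 units higher at 7% than at 14% oxygen, where it was 1.05 above Normoxia, and for Slc16a3 the 2 steps were 0.85 and 1.42. Pdk1 had steps of 0.67 and 0.84, Ak4 of 0.82 and 1.27, Adm of 2.01 and 1.19, and Eno1 of 0.52 and 0.69. Another kind changed at 7% oxygen without passing the test at 14%. Mt2 was 2.93 higher at 7% than at 14%, where its log2 change over Normoxia was 0.26 (adjusted p = 0.4). Vegfa had 0.89 and -0.06 (adjusted p = 0.39), Cdkn1a 2.37 and 0.03 (adjusted p = 0.92), Kif4 2.76 and 0.11 (adjusted p = 0.77), and Kdr -0.77 and -0.06 (adjusted p = 0.3).

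A few genes were higher than in Normoxia at 7% oxygen and lower than in Normoxia at 14%, each past its test. Cebpd was -0.73 at 14% oxygen relative to Normoxia (adjusted p = 0.0034) and 3.01 higher at 7% than at 14%. Rbm3 showed -0.37 and 0.81, Cry1 -0.20 and 0.75, and Slc30a1 -0.31 and 0.73. For some genes most of the decrease was already there at 14% oxygen. Srsf5 was -0.56 at 14% relative to Normoxia and did not pass between 7% and 14% (-0.11, adjusted p = 0.17), and Tra2a likewise (-0.52 and -0.13, adjusted p = 0.13). Hspa1b was -1.28 at 14% relative to Normoxia and a further -0.64 at 7%. C3 did not differ detectably between 7% and 14% (-0.00036 ± 0.25, adjusted p = 1). These 2 exposures carry separate code series in the labels too.

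**Figure D5:**
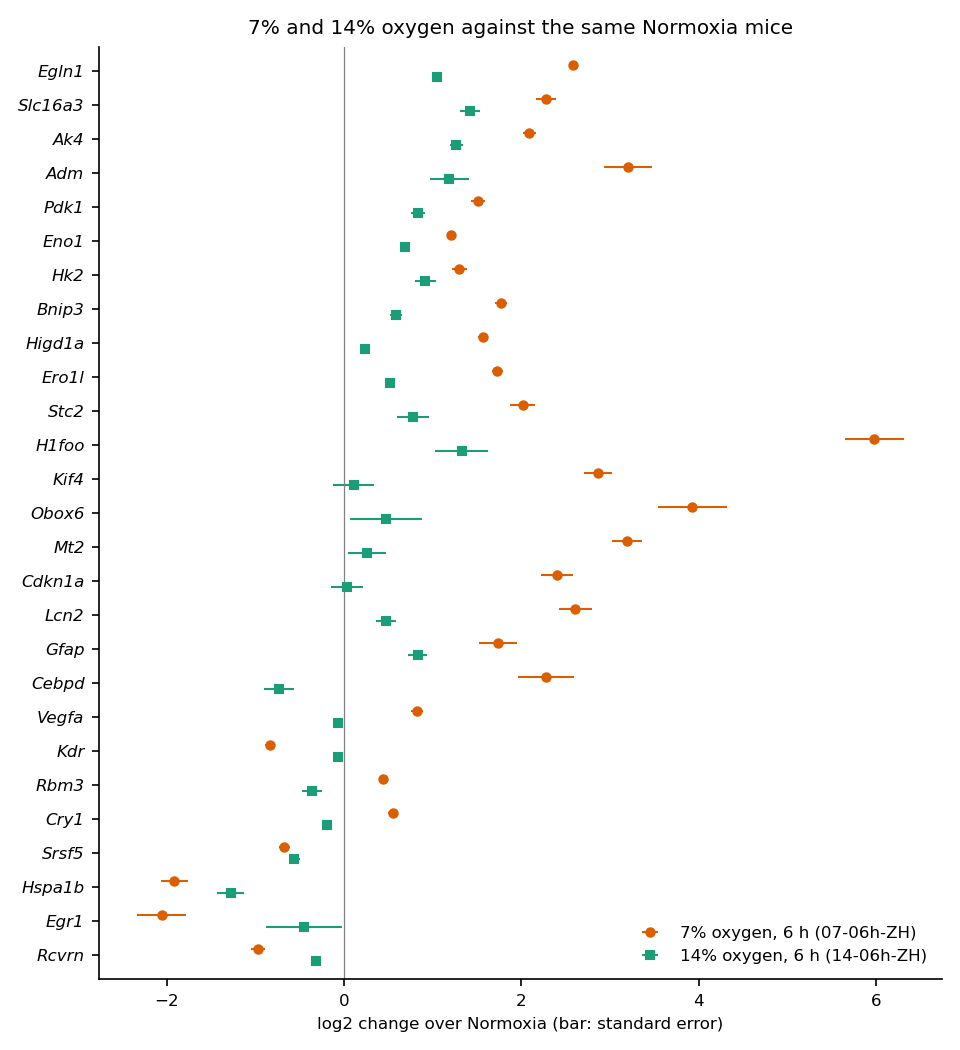
Log2 change over Normoxia (x axis, with standard error) at 7% oxygen (orange, upper) and at 14% oxygen (green, lower) for 27 named genes, 6 h each, against the same 6 Normoxia mice. Egln1, Slc16a3 and Pdk1 lie right of 0 at both levels, Mt2, Kif4 and Cdkn1a lie right of 0 at 7% and near 0 at 14%, and Cebpd lies right of 0 at 7% and left of 0 at 14%.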

How the data were processed

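RNA of 1 retina per mouse was extracted with a column kit that includes a DNase step and sequenced paired-end on a NovaSeq instrument. The authors aligned the reads with STAR (version not given in the sources used here) to GRCm38 and compared pairs of groups with edgeR. How RNA was selected for the libraries and whether counting used strand are not given in the sources used here, so reads of overlapping and antisense genes cannot be told apart. The deposited table gives, for 25700 genes and each of the 42 samples, an FPKM value computed by the authors and a normalized count, a signal the authors made by dividing read counts by a factor for each library.

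FPKM were tested with limma 3.58.1 (R 4.3.3, trend and robust options, two-sided) on log2(FPKM + 0.1) in the 12 mice of the pair of groups compared, and p-values were adjusted by the Benjamini-Hochberg method over all tested genes. A gene listed at 0 in more than 3 mice of a group was not tested, and fold changes of genes of low level are understated on this scale. The FPKM scale was used as deposited, and median-of-ratios scaling would move the median of all genes by 0.03 log2 units. On simulated data for 07-06h-ZH over Normoxia with 16962 genes, 98% of 50 genes changed by 2 log2 units and 86% of 50 raised by 1 log2 unit passed, as did 80% of 50 lowered by 1. Genes were named by rules: the 15 largest called increases and decreases at a mean of at least 1 FPKM without overlap, the members of each list with the smallest adjusted p, those called, against their list's direction or defining its role, genes the study discusses for 7% oxygen, and untested genes above 0 in all mice of 1 group. Some genes are not reported here. The members and the gene lists were chosen with earlier results of these data known. Mice are the replicates, and p-values measure the spread between them. Whole reads were recovered from the normalized counts of 9 of the 12 libraries, where 100% of low values were whole multiples of 1 step (within 0.1 of a step), and were tested with edgeR 4.0.16 as an alternative. Other alternatives were 2 pseudocounts, filters on FPKM, scaling, GC content, the replicate number as a block, all 7 groups in 1 fit, covariates for Y-linked, pigment cell and red blood cell levels, and leaving out each mouse. Promoter sequences are from RefSeq (GRCm38.p6).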

Additional observations from a re-analysis of the deposited data

Results flagged for a closer look

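Some groups held 1 mouse apart from the other 5. Each group of 6 mice was screened for every gene whose levels are given in the text, and in 15 of 168 such groups the gap to the nearest mouse was past Dixon's limit, where chance gives about 1 in 20. Among the 07-06h-ZH mice, Adm was 10.25 FPKM in replicate 2 and at most 5.73 FPKM in the others, and Ak4 was 81.5 FPKM in replicate 1 and at most 70.2 FPKM in the others. C3 was 3.73 FPKM in replicate 1, Ciart 45.5 FPKM in replicate 4 and Kdm3a 89.7 FPKM in replicate 5, each above the other mice of that group, whereas 8430408G22Rik was 4.95 FPKM in replicate 6 and Hmgb2 was 99.9 FPKM in replicate 1, below them. Among the Normoxia mice, replicate 1 was highest for Hbb-bs (358.4 FPKM), Hmox1 (4.81 FPKM), Mt2 (49.9 FPKM) and Stc2 (2.20 FPKM). Rcvrn was highest in replicate 2 (1268 FPKM) and Vegfa in replicate 6 (195.2 FPKM), Kdr was lowest in replicate 5 (35.2 FPKM) and Ckmt1 in replicate 3 (118.3 FPKM). For 14 of these 15 genes the 07-06h-ZH and Normoxia mice did not overlap even so, the exception being Hbb-bs.

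The difference between 7% and 14% oxygen was itself past the test for 585 of the genes called against Normoxia, all in the same direction. These genes were called with the same 07-06h-ZH mice, which favours that direction in advance. In 15 named genes the change from Normoxia was past the test in opposite directions at the 2 oxygen levels. As 07-06h-ZH minus 14-06h-ZH, the log2 difference was 3.01 for Cebpd, 2.15 for Hmgb2, 1.73 for Gadd45b, 1.61 for mt-Nd3, 0.84 for Guca1a, 0.81 for Rbm3, 0.75 for Cry1, 0.73 for Slc30a1, 0.65 for Bhlhe41, 0.56 for Pdk3, 0.52 for Tra2b and 0.40 for Hspa9, all higher at 7% oxygen. It was -0.90 for Tek, -0.73 for Pygb and -0.48 for Nr1d1, lower at 7% oxygen. Limma's adjusted p lay between 2.24e-09 (mt-Nd3) and 0.00135 (Tek).

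Some genes were at 0 in too many mice of a group to be tested. Of these, 56 were above 0 in all 6 mice of 07-06h-ZH and at 0 in at least 4 of Normoxia, and 33 showed the reverse. Klf17, a zinc finger factor of early embryos, had a median of 1.32 FPKM in the 07-06h-ZH mice and was listed at 0 in 5 of 6 Normoxia mice. The others of the 10 with the highest mean level had medians at 7% oxygen of 0.60 FPKM (Zfp819), 0.55 FPKM (Phgr1), 0.55 FPKM (Il17f), 0.48 FPKM (Slc10a6), 0.42 FPKM (Gm43144) and 0.33 FPKM (Tcte3). Gm37376, Gm45008 and Gm10306 showed the reverse, with a median listed at 0 in the 07-06h-ZH mice against 0.61, 0.44 and 0.33 FPKM in the Normoxia mice. These differences were not tested.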

How the results depend on the processing

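The number of genes called depended most on how low levels were handled. With a pseudocount of 1 FPKM, 222 genes were called for 07-06h-ZH over Normoxia (171 higher and 51 lower), and with a mean of at least 1 FPKM 395 (262 higher and 133 lower), in place of 710 (484 and 226). For 07-06h-ZH over 14-06h-ZH the 656 calls (484 and 172) became 190 (158 and 32) and 361 (262 and 99) under these settings, and the lower ones became 264 with a pseudocount of 0.01 FPKM. Under every other alternative the counts of calls stayed within 1.5-fold of the main ones, at 688 to 916 for 07-06h-ZH over Normoxia, including 892 with a pseudocount of 0.01, 712 with median-of-ratios scaling, 801 with edgeR on recovered reads and 916 with limma on the normalized counts. Leaving out each mouse gave 688 to 765 calls (466 to 540 higher and 207 to 266 lower). Of 251 named genes past the test against Normoxia, 214 passed in the same direction under every alternative that gave them a value, 224 with the red blood cell level in the model, 232 with the Y-linked level, 242 with the pigment cell level and 241 with edgeR. Tyrp1 and Dct, not past the test without it, turned negative with the pigment cell level in the model (-1.14 ± 0.35, adjusted p = 0.025, and -1.25 ± 0.39, 0.032). That level includes both genes. All 16 genes given with both steps of oxygen and past the test between 7% and 14% kept that call under every alternative run for that comparison. Replicate numbers did not pair the mice, since same-numbered mice of 07-06h-ZH and Normoxia correlated in their deviations at -0.21 to 0.12 and 1 of 6 matched its own number best. With the replicate block 703 genes were called (476 higher and 227 lower) against Normoxia and 627 (463 and 164) against 14-06h-ZH, and 242 of the 251 named genes passed against Normoxia. Levels under about 1 FPKM rest on few reads, so differences there were detectable only when large.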

Other observations

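Genes outside the lists also differed, and those named here were picked after their values were seen. Hmgb2, a chromatin protein of dividing cells, had 99.9, 136 and 141 FPKM in the 07-06h-ZH mice, against 29.99, 43.6 and 49.6 FPKM in the Normoxia mice (log2 change 1.68 ± 0.14, limma adjusted p = 1.2e-06). Slc37a4, the carrier of glucose 6-phosphate into the endoplasmic reticulum, had 57.1, 60.9 and 67.4 FPKM in the 07-06h-ZH mice, against 20.01, 20.8 and 21.9 FPKM in the Normoxia mice (log2 change 1.55 ± 0.05). Prkab2, a regulatory subunit of the energy sensor AMPK, had 49.1, 52 and 55.2 FPKM in the 07-06h-ZH mice, against 16.9, 18.9 and 22 FPKM in the Normoxia mice (log2 change 1.44 ± 0.06). For these 3 genes every mouse at 7% oxygen was above every Normoxia mouse. Etnppl, which breaks down phosphoethanolamine (1.89 ± 0.11), the arrestin relative Arrdc3 (1.53 ± 0.12), the carrier of cationic amino acids Slc7a1 (1.46 ± 0.10) and Samd7, a repressor in rods (1.32 ± 0.12), were higher as well. Among secreted factors, Egf (1.44 ± 0.13), Edn3 (1.51 ± 0.33) and Thbs1 (1.62 ± 0.37) were higher, and so was Dio3, which inactivates thyroid hormone (1.57 ± 0.23).

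Among decreases, Cdk2ap2, a small regulator of the cell cycle, had 45.3, 54.7 and 84.4 FPKM in the 07-06h-ZH mice, against 134, 151 and 208 FPKM in the Normoxia mice (log2 change -1.46 ± 0.16). Ckmt1, the mitochondrial creatine kinase, had 54.6, 65.2 and 72 FPKM in the 07-06h-ZH mice, against 118, 139.9 and 144 FPKM in the Normoxia mice (log2 change -1.07 ± 0.06). Pnpla3, a lipid-droplet acyltransferase and lipase (-1.36 ± 0.11), and Arg2, the mitochondrial arginase (-1.08 ± 0.09), were lower too. So were Zfp420 (-1.30 ± 0.11), which encodes a zinc finger protein, and Mdc1 (-1.07 ± 0.10), of the response to DNA breaks.

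Further lists were mixed. Of 28 tested genes of lipid storage and fatty acid use 6 were higher and 6 lower (42.9% past the test, against 42% of all tested genes). Their median log2 change was 0.08. The 6 lower became 2 with the red blood cell level in the model and 3 with the pigment or the Y-linked level. Fabp4, a fatty acid binding protein of fat cells and endothelium, was called higher (1.15 ± 0.15) beside Plin4, and Fabp7, the form of radial glia, was called lower (-1.16 ± 0.26). Of 15 pumps and exchangers for sodium, potassium and calcium 12 did not pass the test. Of 34 aminoacyl-tRNA synthetases 6 were higher and 6 lower, of 38 proteasome subunits 7 and 9, and of 78 mitochondrial ribosomal proteins 17 and 19, and all but 1 of these genes stayed under a 2-fold difference. With the Y-linked level in the model 3 synthetases were lower, and 3 proteasome subunits and 7 mitochondrial ribosomal proteins higher. With a count test on recovered reads 3 synthetases and 5 proteasome subunits were lower. The 7 higher proteasome subunits became 4 without replicate 5 of 07-06h-ZH or replicate 6 of Normoxia.

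Another set seen after the fact held genes that pigment epithelium and ciliary epithelium express. Pon1 had 2.84, 8.41 and 19.99 FPKM in the 07-06h-ZH mice, against 0.248, 0.824 and 4.33 FPKM in the Normoxia mice (log2 change 2.82 ± 0.74), with overlap of the groups. Slc6a20a (2.59 ± 0.58), Best2 (2.40 ± 0.52), the lactate carrier Slc16a8 (2.32 ± 0.64), Cldn1 (2.29 ± 0.52), the vitamin A receptor Stra6 (1.54 ± 0.40) and Col8a1 (1.45 ± 0.50) were higher, each with a standard error above that of the glycolysis genes named in the text. With the pigment cell level in the model, Pon1 had a log2 change of 1.87 ± 0.47 (adjusted p = 0.0093) and Stra6 one of 1.01 ± 0.24 (0.0056).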
